A study of Mus musculus with 15 samples.

Results

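The genes described here encode E2F transcription factors and the RB pocket proteins that bind them. The members are 10 listed symbols, E2f1, E2f2, E2f3, E2f4, E2f5, E2f6, E2f8, Rb1, Rbl1 and Rbl2, looked up by name. They are 10 of 19069 genes in the RNA count files and 10 of 21881 promoters in the chromatin tables. All 10 had enough counts to be tested. E2F factors bind DNA at the promoters of genes for DNA replication and cell division. The pocket proteins bind E2F factors and hold those promoters silent until cyclin-dependent kinases phosphorylate the pocket protein in G1 phase. E2F1, E2F2 and E2F3 are known mainly as activators, E2F4 and E2F5 mainly as repressors with the pocket proteins, and E2F6 and E2F8 as repressors that do not bind pocket proteins.

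The irradiated group was NIH3T3 cells that were washed, exposed without medium to 80 J/m2 of UV-C light at 254 nm, given fresh medium with DMSO at 1 part in 2000, and collected 6 h later. The untreated group was NIH3T3 cells with no treatment named, and the labels do not say whether these cells were washed or given DMSO. Both groups are the same established line of mouse embryonic fibroblasts. RNA was sequenced from 3 irradiated and 3 untreated libraries. Open chromatin was measured by FAIRE-seq, which recovers DNA that is poorly crosslinked to protein, and H3K27ac, an acetyl mark on a histone tail that is found at active regulatory DNA, by ChIP-seq. Each of these had 2 samples per condition and shared 1 input DNA sample, and the tables hold reads pooled by condition. Pooled values carry no replicate error and were not tested.

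The RNA libraries held 14211528 to 20136117 counts in irradiated cells and 18183266 to 22032701 in untreated cells. The fibroblast gene Col1a2 was at 5273 to 7786 CPM (counts scaled to a common library total) in irradiated and 7202 to 8516 CPM in untreated libraries, while the epithelial gene Epcam stayed at or below 0.485 and 0.908 CPM. NIH3T3 cells are known to lack the Cdkn2a locus, whose products p16 and ARF act on the RB and p53 pathways. Cdkn2a and Cdkn2b had 0 counts in all 6 RNA libraries, and their promoter windows had 0 reads in irradiated, untreated and input DNA. Irradiated replicate 1 stood apart. It had 17607 genes detected against 18350 to 18787 in the other libraries, and a TMM normalization factor of 0.803 against 0.932 to 1.19. Its TMM-scaled CPM was the highest of the irradiated libraries for 8 of the 10 members. A low TMM factor raises the scaled CPM of every gene in a library. The share of all tested genes for which this library was highest was not computed, so the count is not read as particular to the members. The part of this library in those values was not tested beyond the fits without it.

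The 300-base RefSeq promoters, from 250 bases before to 50 after a start site on GRCm38.p6, were searched on both strands for a 7-base E2F motif in 4 spellings. The first was TTCCCGC, the second was TTGGCGC, another spelling was TTCGCGC, and the last spelling was TTGCCGC. Promoters were found for 7 of the 10 genes, 9 in all, since E2f2 and E2f3 have 2 each. A match was present in 4 of the 9 promoters, against 9.57% of all 32851 promoters. The letters G and C made up 54.7% to 66.7% of these 4 promoters, against a median of 52.7% over all. All spellings of the motif are rich in G and C, and the comparison did not account for this. The 4 promoters with a match are shown because they carry the letters that E2F proteins are known to bind. Each match is in capitals, 5′ to 3′ on the gene's strand.
E2f3, the upstream of its 2 promoters (chr13:29986014-29986313, minus strand): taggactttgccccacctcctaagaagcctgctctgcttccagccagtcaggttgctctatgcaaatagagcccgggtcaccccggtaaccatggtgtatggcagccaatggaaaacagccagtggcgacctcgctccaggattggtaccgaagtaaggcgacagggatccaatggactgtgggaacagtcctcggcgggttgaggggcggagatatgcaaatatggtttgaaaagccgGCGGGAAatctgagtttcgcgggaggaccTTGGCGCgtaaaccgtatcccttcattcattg
E2f8 (chr7:48881547-48881846, minus strand): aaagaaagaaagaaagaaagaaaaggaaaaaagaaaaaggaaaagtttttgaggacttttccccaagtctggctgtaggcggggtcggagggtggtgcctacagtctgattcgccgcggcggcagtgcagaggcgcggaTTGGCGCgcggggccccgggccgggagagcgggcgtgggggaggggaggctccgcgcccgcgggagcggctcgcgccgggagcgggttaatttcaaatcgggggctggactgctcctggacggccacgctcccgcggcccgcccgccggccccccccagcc
E2f2, the upstream of its 2 promoters (chr4:136172024-136172323, plus strand): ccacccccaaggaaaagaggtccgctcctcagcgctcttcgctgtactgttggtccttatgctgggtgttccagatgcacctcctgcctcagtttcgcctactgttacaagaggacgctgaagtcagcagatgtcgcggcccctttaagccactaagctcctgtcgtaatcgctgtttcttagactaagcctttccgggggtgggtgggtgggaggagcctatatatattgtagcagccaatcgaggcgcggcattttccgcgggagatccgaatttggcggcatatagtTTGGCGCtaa
Rbl1 (chr2:157204485-157204784, minus strand): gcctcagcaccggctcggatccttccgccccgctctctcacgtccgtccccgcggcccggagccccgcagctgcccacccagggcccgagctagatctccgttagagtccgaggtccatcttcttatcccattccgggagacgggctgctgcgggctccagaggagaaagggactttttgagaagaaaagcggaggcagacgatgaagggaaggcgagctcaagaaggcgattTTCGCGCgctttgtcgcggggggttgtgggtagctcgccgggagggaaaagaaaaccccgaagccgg
E2f3 had 2 matches, which began 11 bases before the start site and at base 19 counted from the start site as base 1, and 1.18% of all promoters had at least 2. The E2f8 match began 111 bases before the start site and shared letters with a CCAAT box read on the other strand (ATTGG, which began 1 base earlier). The CHR motif (spelled TTTGAA, or in its other form TTCGAA, on either strand), known as the site where MuvB complexes bind cell cycle promoters, was present in 4 of the 9 promoters, against 19.2% of all. The CCAAT box was in 4 of the 9, against 37.4% of all. A match of letters does not show that a factor is bound there. The windows rest on annotated start sites, which need not be the main start sites of these genes. A gene without a match here, E2f1 among them, may carry one outside the window searched.

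The RNA comparison asked how these genes stood 6 h after UV. Of the 10 members 4 were lower (E2f3, E2f5, E2f6 and E2f8), 1 was higher (Rb1) and 5 did not pass the test, where a call is a Benjamini-Hochberg p under 0.05 over 14925 genes by edgeR's quasi-likelihood test. Of all tested genes, 20.1% were called, 12.4% lower and 7.7% higher. The members' median log2 fold change was −0.52, against −0.01 for all tested genes. The irradiated and untreated libraries did not overlap for 5 members that were lower and 1 that was higher, where 17.3% and 16.6% of all tested genes had no overlap in those directions. Without irradiated replicate 3 the calls were 2 lower and 0 higher, without untreated replicate 1 they were 2 lower and 1 higher, and without irradiated replicate 1 they were 6 lower and 1 higher. In the same order, 1139, 1511 and 2849 of all tested genes were lower and 585, 1796 and 1188 were higher. The genes tested in those fits numbered 15581, 15604 and 15589. The values below are CPM scaled by the trimmed mean of M values (TMM). The labels do not say whether the libraries came from separate cultures, so the p-values reflect the spread of these libraries alone, which may be technical. In bulk RNA, fewer cells of a kind and less RNA per cell cannot be told apart.

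**Figure D1:**
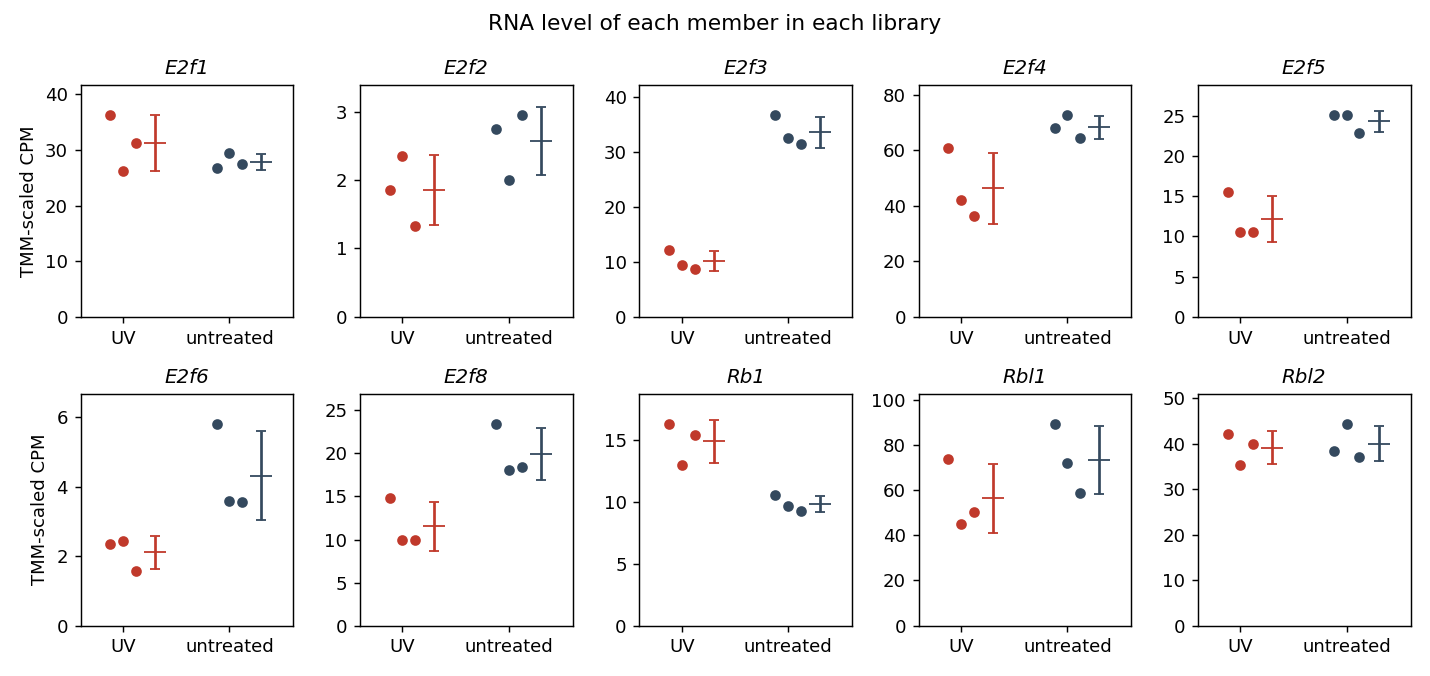
TMM-scaled CPM (vertical axes, each from 0) of each member in the 3 irradiated (left, red) and 3 untreated (right, dark) libraries, one point per library in the order of replicates 1 to 3, with mean and SD beside them. For E2f3, E2f4, E2f5, E2f6, E2f8 and Rb1 the 2 groups do not overlap.

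Among the activators, E2f3 fell and E2f1 and E2f2 did not pass the test. E2f3 was at 12.2, 9.43 and 8.75 CPM in irradiated replicates 1 to 3 and at 36.7, 32.6 and 31.5 CPM in untreated replicates 1 to 3. Every irradiated library lay below every untreated one. The mean was 10.1 ± 1.82 CPM in irradiated and 33.6 ± 2.78 CPM in untreated cells (SD, n = 3 each), and the edgeR log2 fold change was −1.73 ± 0.19 (SE, adjusted p = 4.35e-06), a level 3.32-fold lower. The gene makes the isoforms E2F3a and E2F3b from separate promoters, which counts per gene do not separate. In the authors' deposited table, E2f3 had a log2 fold change of −1.71 and an adjusted p of 3.08e-07. E2f1, which encodes the activator best known for driving both S phase entry and cell death, was at 36.3, 26.3 and 31.2 CPM in irradiated and 26.7, 29.4 and 27.6 CPM in untreated libraries. The groups overlapped, and the log2 fold change was 0.16 with a 95% interval from −0.20 to 0.53 (edgeR adjusted p = 0.668), and −0.085 with library totals alone. That interval does not reach the interval of E2f3, which ran from −2.12 to −1.34. E2f2 was a low-count gene, with 30, 35 and 23 counts in irradiated and 53, 44 and 77 counts in untreated libraries. Its log2 fold change of −0.48 had an interval from −1.33 to 0.37 (edgeR adjusted p = 0.537), so that a fall of more than 2-fold and a smaller rise both lie within it.

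Of the repressors that act with pocket proteins, E2f5 fell and E2f4 did not pass the test. E2f5 was at 15.5, 10.6 and 10.5 CPM in irradiated and 25.1, 25.1 and 22.9 CPM in untreated libraries, with no overlap. The log2 fold change was −0.996 ± 0.19 (SE, edgeR adjusted p = 0.00105), a level 1.99-fold lower. Its annotated span overlaps that of 1810022K09Rik (now Rbis), which was higher in irradiated cells (edgeR log2 fold change 0.59, adjusted p = 0.0246). E2f4, which encodes the main E2F of resting cells, was at 60.7, 41.9 and 36.1 CPM in irradiated and 67.8, 72.6 and 64.3 CPM in untreated libraries. The groups did not overlap, but irradiated replicate 1 lay closer to the untreated libraries than to irradiated replicates 2 and 3. The log2 fold change was −0.56 ± 0.20 (SE, edgeR adjusted p = 0.0573). Without irradiated replicate 1 it was −0.82 (edgeR adjusted p = 8.62e-05), and E2f4 was also called lower with library totals alone (adjusted p = 0.00201), with a minimum of 1 CPM in 3 libraries (adjusted p = 0.0304) and with a replicate block (adjusted p = 0.0312).

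E2f6 and E2f8, whose products repress without pocket proteins, were both lower in irradiated cells. E2f8, an atypical E2F with a tandem pair of DNA-binding domains, was at 14.8, 9.90 and 9.90 CPM in irradiated and 23.4, 18.1 and 18.4 CPM in untreated libraries. The groups did not overlap, and replicate 1 was the highest in each. The log2 fold change was −0.79 ± 0.20 (SE, edgeR adjusted p = 0.00892). The call was lost without irradiated replicate 3 (adjusted p = 0.0694) and without untreated replicate 1 (adjusted p = 0.0513). E2f6, which encodes a subunit of a Polycomb complex known as PRC1.6, had 38, 36 and 27 counts in irradiated and 112, 79 and 93 counts in untreated libraries. In CPM these were 2.35, 2.42 and 1.56 against 5.80, 3.59 and 3.56, with no overlap. The log2 fold change of −1.03 ± 0.35 (SE) had an edgeR adjusted p of 0.0457. The call was lost in the fits that left out irradiated replicate 3 (adjusted p = 0.259) or any 1 of the untreated libraries (adjusted p = 0.417, 0.109 and 0.0972 for replicates 1 to 3) and in the unfiltered fit (adjusted p = 0.0614). E2f8 and E2f6 had adjusted p-values of 0.0819 and 0.0906 in the authors' deposited table. That table holds 2068 genes with adjusted p up to 0.0999, and lists 4 of the 10 members, the others being E2f3 and E2f5.

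Of the 3 pocket protein genes, Rb1 rose and Rbl1 and Rbl2 did not pass the test. Rb1 encodes the retinoblastoma protein, which is known to bind the activator E2Fs. It was at 16.3, 12.9 and 15.4 CPM in irradiated and 10.5, 9.69 and 9.26 CPM in untreated libraries. Every irradiated library lay above every untreated one. The mean was 14.9 ± 1.74 CPM in irradiated and 9.82 ± 0.640 CPM in untreated cells (SD, n = 3 each), and the log2 fold change was 0.60 ± 0.18 (SE, edgeR adjusted p = 0.0260), a level 1.52-fold higher. The call was lost without irradiated replicate 3 (adjusted p = 0.174), with library totals alone (log2 fold change 0.36, adjusted p = 0.0686), in the unfiltered fit (adjusted p = 0.0958) and in DESeq2's Wald test (adjusted p = 0.0667).

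The annotated span of Rb1 on GRCm38 overlaps that of Lpar6, which encodes a receptor for lysophosphatidic acid. Lpar6 was at 96.7, 49.0 and 74.9 CPM in irradiated and 13.2, 11.1 and 10.5 CPM in untreated libraries, a log2 fold change of 2.67 ± 0.23 (SE, edgeR adjusted p = 4.71e-07). Its irradiated libraries thus lay several times above its untreated ones. Whether the authors' counting used strand, and how it treated reads in overlapping genes, is not stated by the labels or headers. The part of Lpar6 reads in the count of Rb1 was not tested.

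Rbl1 and Rbl2 encode p107 and p130, the pocket proteins known to bind E2F4 and E2F5. Rbl1 was at 73.8, 45.0 and 50.3 CPM in irradiated and 89.3, 71.8 and 58.9 CPM in untreated libraries. Irradiated replicate 1 lay above untreated replicates 2 and 3, so the groups overlapped. The log2 fold change was −0.38 with an interval from −0.83 to 0.07 (edgeR adjusted p = 0.269). It was −0.64 without irradiated replicate 1 (edgeR adjusted p = 0.00337) and −0.63 with library totals alone (adjusted p = 0.0113), and Rbl1 was called lower in both. Rbl2 was at 42.2, 35.2 and 40.0 CPM in irradiated and 38.5, 44.3 and 37.1 CPM in untreated libraries, and the groups overlapped. Its log2 fold change was −0.03, with an interval from −0.39 to 0.33 (edgeR adjusted p = 0.971). The direction of Rbl2 was therefore not resolved, and it turned in 4 of the 6 fits that left out a library.

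**Figure D2:**
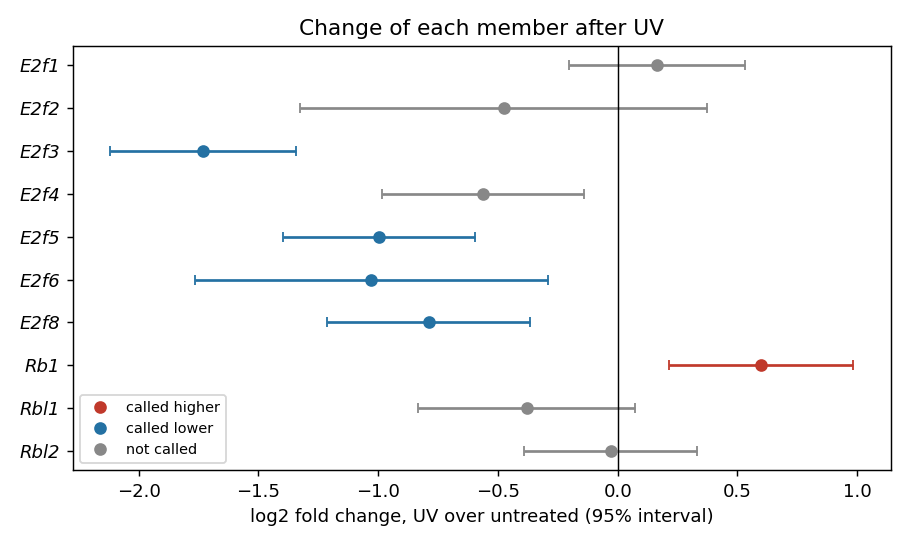
Log2 fold change of each member, irradiated over untreated (horizontal axis), with 95% intervals from the edgeR fit of 6 libraries. Blue marks members called lower, red called higher and grey not called. E2f3 lies farthest from 0 at −1.73 and Rb1 is the one member called higher at 0.60.

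The chromatin comparison asked how acetylation and openness stood at the 1000-base promoter windows of these genes. Values are the authors' log2 enrichment of pooled reads over scaled input, and a difference is irradiated minus untreated. H3K27ac lay above its untreated value at 6 and below it at 4 of the 10 promoters, where 41.7% of all promoters lay above, at a median difference of 0.20 against −0.01 over all promoters. A gain of at least 1 was reached by 1 member, Rb1, against 2.38% of all promoters, and a loss of at least 1 by 0 members, against 3.43%, although E2f6 was at −1.13 when 1 read was added in place of 16. The Rb1 promoter had 821 reads in irradiated and 235 in untreated cells. Its enrichment was 5.09 in irradiated and 3.36 in untreated cells, a difference of 1.73 that exceeded the differences of 99.7% of all promoters. Scaled by depth, its reads were 3.46-fold higher, with an exact 95% interval from 2.99 to 4.02. These intervals come from the binomial distribution and cover counting error only. The promoter of Lpar6 had 243 and 117 H3K27ac reads in irradiated and untreated cells, a difference in enrichment of 0.96.

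Acetylation and RNA of single members did not always point the same way. E2f3, with the lowest RNA fold change of the 10 members, had 226 H3K27ac reads in irradiated and 139 in untreated cells, a difference of 0.64 in enrichment and a read ratio of 1.61 with an interval from 1.30 to 2.01. At the E2f5 promoter there were 205 reads in irradiated and 133 in untreated cells (difference 0.56, read ratio 1.53, interval 1.22 to 1.92). Both promoter windows thus held more acetylation where the RNA of the gene was lower. E2f3 has 2 promoters but was read in a single window, so its RNA need not all come from the promoter measured. At E2f1, where the RNA did not pass the test, the reads were 359 in irradiated and 251 in untreated cells, a difference of 0.48.

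Lower acetylation was found at E2f6, Rbl2, E2f4 and E2f8. The E2f6 window had few reads, 23 in irradiated and 51 in untreated cells, with 28 in the input, and its enrichment was 0.12 in irradiated and 0.91 in untreated cells. Its read ratio of 0.447 had an interval from 0.261 to 0.745. The Rbl2 promoter had 103 reads in irradiated and 170 in untreated cells, a difference of −0.65, although its RNA did not pass the test. For E2f4 and E2f8 the differences were −0.37 and −0.25, with 394 against 511 reads and 267 against 318 reads in irradiated and untreated cells. Rbl1 had the highest number of reads among the members in both conditions, 1162 in irradiated and 1029 in untreated cells, and a difference of 0.16, which was −0.21 after quantile normalization. E2f2 had 142 reads in irradiated and 118 in untreated cells, a ratio of 1.19 with an interval from 0.928 to 1.54 that holds 1.

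**Figure D3:**
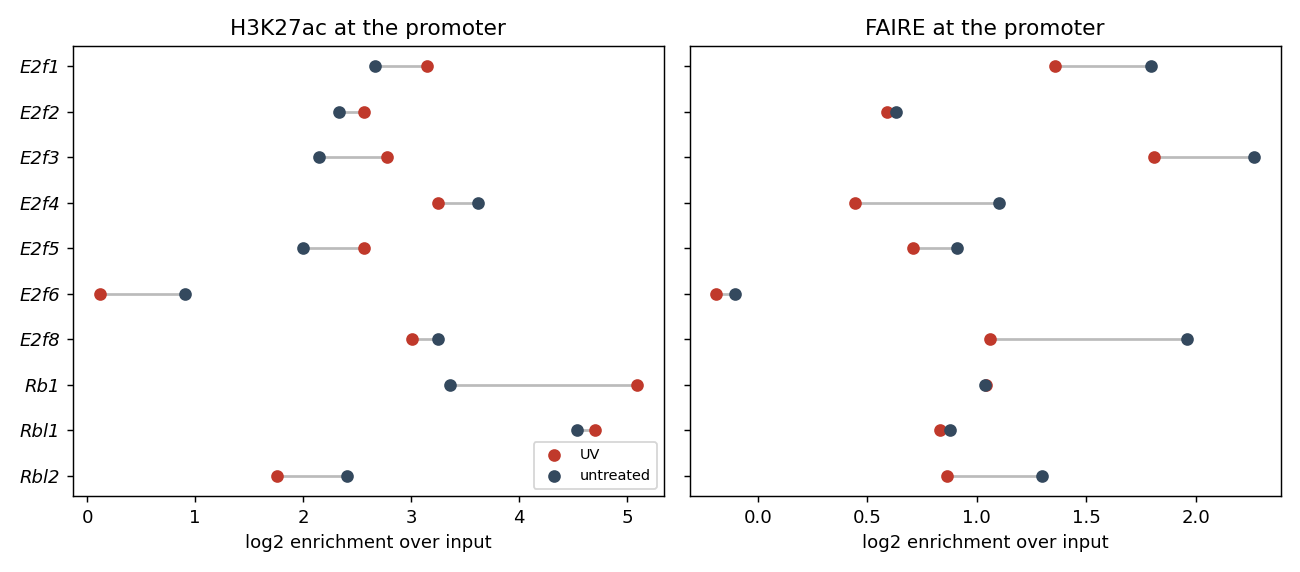
Log2 enrichment over input (horizontal axes) at the promoter of each member for H3K27ac (left) and FAIRE (right), with irradiated cells in red, untreated cells in dark and a line joining them. The longest H3K27ac line is that of Rb1, at 5.09 in irradiated and 3.36 in untreated cells, and the longest FAIRE line is that of E2f8, at 1.06 and 1.96.

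FAIRE enrichment lay below its untreated value at 9 of the 10 promoters as deposited, and above it at 1, but above it at 6 after quantile normalization of the 2 conditions. The median difference of the members was −0.32, against −0.17 over all promoters, of which 29.9% had a difference above 0. Reads over all promoter windows together, scaled by depth, were 0.769 of the untreated value, so lower values were common to most promoters. Losses of at least 1 numbered 0 among the members, against 1.05% of all promoters, and gains of that size also 0, against 0.00457%. The member with the lowest difference was E2f8, whose promoter had 47 reads in irradiated and 115 in untreated cells. Its enrichment was 1.06 in irradiated and 1.96 in untreated cells, a difference of −0.90, and its read ratio was 0.509 with an interval from 0.355 to 0.721. Of all promoters 2.17% had a lower difference. E2f4 had 33 reads in irradiated and 72 in untreated cells, a difference of −0.66 and a read ratio of 0.571 with an interval from 0.366 to 0.873. E2f3 had the highest FAIRE enrichment of the members, 1.81 in irradiated and 2.26 in untreated cells, with 90 and 146 reads. The read ratios of the other members had intervals that held 1, as did that of E2f3 (0.584 to 1.01). Set against the ratio of 0.769 over all promoter windows, the interval of E2f8 lay below it. The intervals of all other members, E2f4 among them, held 0.769. The Rb1 promoter had 30 reads in irradiated and 33 in untreated cells and a FAIRE difference of 0.01, beside its gain of acetylation. At these read numbers a change in the openness of Rb1 was not detectable, since the ratio of 1.13 had an interval from 0.667 to 1.92.

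The genes that act with the E2F and pocket proteins were read as 8 lists, which share some genes. Ccne1 and Ccne2 are in both the cyclin and the G1/S list, and Ccna2 is in both the cyclin and the G2/M list. Their falls are therefore counted in both lists. Mybl2, Cdc20 and Ube2c also repeat between lists. The first list held genes for E2F dimer partners and for MuvB, which joins E2F4 and the pocket proteins on cell cycle promoters in the DREAM complex. It also held Dyrk1a, Foxm1, Mybl1 and Mybl2. Of its 11 genes 5 fell and 0 rose, where 12.4% of all tested genes fell and 7.7% rose. The list had −0.15 as the median log2 fold change. That median was 0.04 without untreated replicate 1 and −0.47 without irradiated replicate 1. The medians of all tested genes in those fits were 0.12 and 0.05. The MuvB subunit genes Lin52 (−1.37 ± 0.20, SE, edgeR adjusted p = 8.31e-05), Lin37 (−0.96) and Lin9 (−0.72) fell, as did Lin54, while the MuvB subunit gene Rbbp4 was at 0.33 and did not pass the test (edgeR adjusted p = 0.330). A fall was also found for Dyrk1a (−1.03), whose kinase is known to assemble the DREAM complex by acting on LIN52. The dimer partner genes Tfdp1 (−0.12) and Tfdp2 (−0.03) did not pass the test. Nor did Foxm1 (0.17), Mybl1 (0.32) and Mybl2 (−0.15). Without irradiated replicate 3, untreated replicate 1 or untreated replicate 2, 2 of the 11 fell, and without irradiated replicate 2 or in DESeq2's test 3 fell. In the same order, 1139, 1511, 1168, 1453 and 1395 of all tested genes fell, against 1854 in the edgeR fit of all libraries.

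Genes that set the phosphorylation of the pocket proteins included the cyclins, their kinases and the kinase inhibitors. Of 10 tested cyclin and kinase genes 3 fell and 0 rose, at a median of −0.29, where 12.4% of all tested genes fell and 7.7% rose. Those that fell were the E-type cyclin genes Ccne1 (−1.26, edgeR adjusted p = 0.00104) and Ccne2 (−0.81), and the A-type cyclin gene Ccna2 (−1.06). The D-type cyclin genes Ccnd1 (−0.08), Ccnd2 (−0.09) and Ccnd3 (−0.21) did not pass the test. Of the 7 CDK inhibitor genes 3 could be tested. Cdkn1a, which encodes p21, rose to a mean of 109 CPM in irradiated cells, against 22.7 CPM in untreated cells (log2 fold change 2.26 ± 0.32, SE, edgeR adjusted p = 6.96e-05). Its irradiated replicates 1 to 3 were spread widely, at 180, 55.4 and 91.9 CPM, and its untreated ones were at 29.9, 19.9 and 18.4 CPM. The related gene Cdkn1b, which encodes p27, fell to a mean of 35.3 CPM in irradiated cells, against 96.9 CPM in untreated cells (−1.46 ± 0.19, SE, edgeR adjusted p = 2.55e-05). Cdkn2c was at −0.42 and did not pass the test.

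Calls in both directions were found among the corepressor genes, and falls alone in the E2F6 complex and among regulators of turnover. Of all tested genes 12.4% were called lower and 7.7% higher. Of 14 corepressor genes 2 rose, which were the deacetylase gene Hdac1 (0.67) and the scaffold gene Sin3b (0.60), and 2 fell, which were the H3K9 methyltransferase gene Suv39h1 (−1.30) and Sin3a (−0.85). For the falls this is a share near that of all tested genes. The list's median was −0.08, and it was 0.05 without untreated replicate 1 and 0.12 without untreated replicate 2. The medians of all tested genes in those fits were 0.12 and 0.03. Of 11 genes of the E2F6 complex 3 fell and 0 rose, at a median of −0.17 (0.03 without untreated replicate 2), and these were Max (−1.28), L3mbtl2 (−1.10) and Pcgf6 (−0.84). Among 9 genes linked to E2F degradation 3 fell and 0 rose, at a median of −0.04. This median lay above 0 without irradiated replicate 2 (0.09), irradiated replicate 3 (0.02), untreated replicate 1 (0.09) or untreated replicate 2 (0.04). In the same order, the medians of all tested genes in those fits were −0.07, −0.03, 0.12 and 0.03. Ccnf, which encodes the F-box protein cyclin F, had the lowest value (−2.16 ± 0.28, SE, edgeR adjusted p = 3.03e-05), at 22.1 CPM in irradiated and 98.7 CPM in untreated cells, and the F-box gene Skp2 (−1.30) and the scaffold gene Cul1 (−0.68) also fell.

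Target genes of E2F in G1/S phase gave 9 falls and 2 rises among 38 tested, at a median of −0.15. The smallest p was that of Cdca7 (−1.84 ± 0.19, SE, edgeR adjusted p = 3.47e-06), at 22.4 CPM in irradiated and 80.3 CPM in untreated cells, with the histone mRNA binding protein gene Slbp (−1.35), the origin recognition gene Orc1 (−1.30) and the uracil glycosylase gene Ung (−1.22) following it in order of p. The rises were the Polycomb methyltransferase gene Ezh2 (0.66) and the ligase gene Lig1 (0.62). The other 27 did not pass the test, among them the helicase genes Mcm3 (−0.03) and Mcm6 (0.04). Falls thus made up 9 of 38 and rises 2 of 38, where 12.4% and 7.7% of all tested genes were called. Of 30 G2/M genes known as DREAM targets 7 fell and 0 rose, at a median of −0.23. Examples were Cdk1 (−1.55), its cyclin gene Ccnb1 (−1.53), its phosphatase gene Cdc25b (−1.24) and the mitotic kinase gene Plk1 (−1.12). The medians of both lists changed sign without untreated replicate 1, to 0.11 in the G1/S list and 0.10 in the G2/M list, where the median of all tested genes was 0.12. Without irradiated replicate 1 they were −0.42 and −0.58, and without irradiated replicate 2 they were −0.01 and −0.06. The median of all tested genes was 0.05 without irradiated replicate 1 and −0.07 without irradiated replicate 2. Without irradiated replicate 1 the falls were 17 of 38 in the G1/S list and 16 of 30 in the G2/M list, and with library totals alone they were 17 and 13. Falls over all tested genes also grew, from 1854 of 14925 with all libraries. They were 2849 of 15589 without irradiated replicate 1 and 3739 of 14925 with library totals alone. The 2 rises in the G1/S list were 0 without irradiated replicate 3, 1 without irradiated replicate 1 and 4 without irradiated replicate 2 or untreated replicate 1. In the corepressor list the rises were 0 without irradiated replicate 3 and in the unfiltered fit, and 7 genes fell with library totals alone. Scaling by library totals also gave 7 falls in the E2F6 complex. Both that scaling and the fit that left out irradiated replicate 1 gave 6 falls among the cyclins and kinases and 2 among the CDK inhibitors. Lists with 0 rises had at most 2 in the fits that left out a library.

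**Figure D4:**
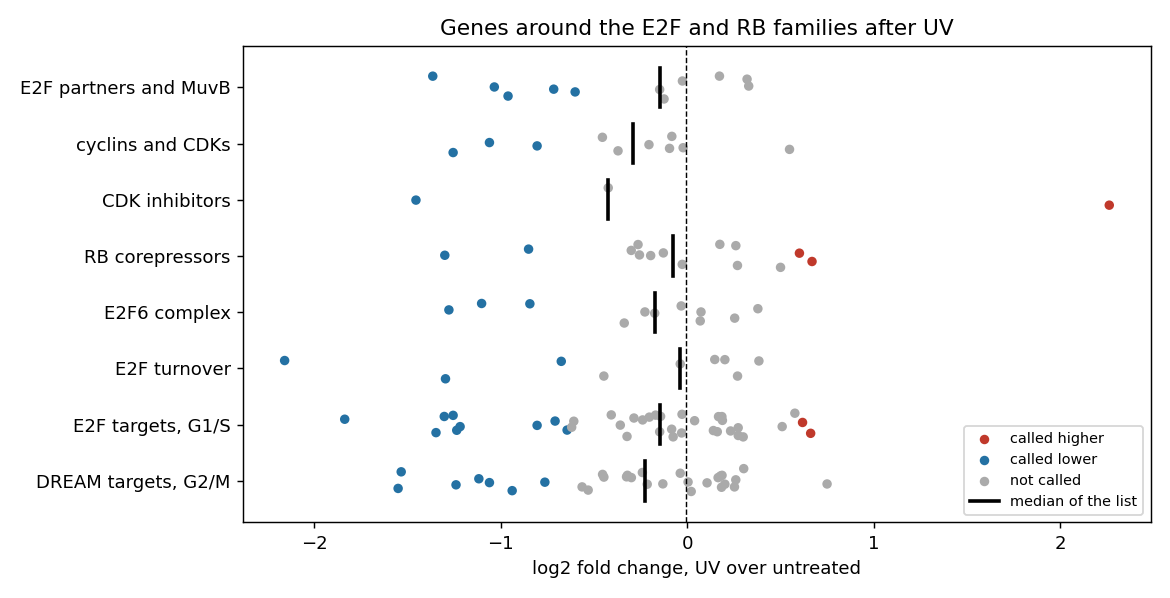
Log2 fold change, irradiated over untreated (horizontal axis), of each tested gene in the 8 lists, with a black bar at each list's median and a dashed line at the median of all tested genes (−0.01). Blue marks genes called lower, red called higher and grey not called. The medians lie between −0.42 and −0.04, and the point at 2.26 is Cdkn1a.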

How the data were processed

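The RNA values are whole-number read counts per gene and library, as the authors deposited them. The build mm9 and the tools DESeq2, MACS2, TopHat and Bowtie 0.12.9 are named in the submitters' processing notes, and how reads were counted is not given in the sources used here. Per the file headers, the promoter tables hold a read count per 1000-base window and condition, with replicates merged, and a log2 enrichment over input. The log2 values the authors deposited were recomputed by adding 16 to the reads and to the scaled input before taking the log2 ratio. The input scales were 0.528 and 0.657 for irradiated and untreated FAIRE and 0.712 and 0.706 for H3K27ac, and their ratio was used as the ratio of depths. Columns with DMSO in their name were taken as irradiated, since the labels' protocol gives DMSO to irradiated cells, and 10 columns that could not be matched to a sample by name were not used. The p-value, adjusted p-value and log2 fold change columns are those of the authors' deposited table of their comparison.

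The count model was fitted by edgeR 4.0.16 under R 4.3.3 (filterByExpr, TMM, quasi-likelihood F test, Benjamini-Hochberg over 14925 genes, threshold 0.05) and checked on simulated data. In that check a first criterion, on recovery over all genes, was not met and was replaced by one on calibration and on recovery of genes with many counts. At the larger change put in, nearly all missed genes had few counts, which bears on low-count members such as E2f2 and E2f6. The SE is the log2 fold change divided by the square root of F. All 10 members were named, and in each list up to 4 called genes by smallest p, or 2 where none was called. The exceptions, chosen after their values were seen, are Lin54, Rbbp4, Tfdp1, Tfdp2, Foxm1, Mybl1, Mybl2, Ccnd1, Ccnd2, Ccnd3, Cdkn2a, Cdkn2b, Cdkn2c, Ezh2, Lig1, Mcm3, Mcm6, Lpar6, 1810022K09Rik, Col1a2 and Epcam. The members and lists were chosen with earlier results of these data known. Tables were handled in Python 3.11.15 with pandas 2.3.3 and scipy 1.17.1, and figures drawn with matplotlib 3.10.9. Alternatives were DESeq2 1.42.0, its size factors, library totals, other filters, the replicate number as a block and the fit without each library. For chromatin they were centring, quantile normalization, 1 read added in place of 16, and depth-scaled reads without the input. Peak lists were not used here.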

Additional observations from a re-analysis of the deposited data

How the results depend on the processing

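E2f3 and E2f5 were called lower in all 12 alternatives for RNA, with log2 fold changes from −1.98 to −1.54 and from −1.25 to −0.86. Among the others, E2f8 was called in 10, Rb1 in 8, E2f6 in 7, E2f4 in 4 and Rbl1 in 2, and E2f1, E2f2 and Rbl2 in 0. Members called higher, 1 in the fit of all libraries, numbered 0 with library totals alone, 0 in DESeq2's test and 0 without a low-count filter, and 0 to 1 in the fits that left out a library. Members called lower, 4 with all libraries, numbered 2 to 6 in those fits. The lowest count came without irradiated replicate 3 or untreated replicate 1. E2f1 turned to −0.085 with library totals alone, which moved the median of all tested genes to −0.24. Rbl2, at −0.03, was at 0.04, 0.07, 0.17 and 0.03 without irradiated replicate 2 and untreated replicates 1, 2 and 3, in a range from −0.10 to 0.17 over the 6 fits that left out a library, and at −0.27 with library totals alone. The cause of these moves was not tested. The 8 lists hold 125 different genes, not all of which could be tested. Rises numbered 5 and falls 30, against 1149 and 1854 among all 14925 tested genes. Scaling by library totals gave 59 falls in the lists and 3739 among all tested genes. The lists had 3 rises without a low-count filter (791 of all 18869) and 8 with the replicate block (1276 of all 14925). Fits that left out a library gave 2 to 11 rises and 22 to 53 falls in the lists. Over all tested genes those fits gave 585 to 1941 rises and 1139 to 2849 falls. These shifts are therefore not read as particular to the listed genes.

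With the replicate number as a block, 1 member was higher and 5 lower, where 1276 of 14925 tested genes were higher and 2067 lower. Same-numbered libraries correlated at 0.15, −0.58 and 0.50 in their deviations from the group means, and 1 of 3 irradiated libraries correlated best with its own number, so the numbers were not taken as pairs. FAIRE differences above 0, found at 1 member, were found at 4 after centring, 6 after quantile normalization, 3 with 1 read added and 3 without the input. The FAIRE direction of most members therefore depended on the scaling, with E2f4, E2f8 and Rbl2 below 0 in each (−0.80 to −0.33, −0.98 to −0.42 and −0.47 to −0.026) and Rb1 above 0 in each (0.0059 to 0.41). H3K27ac counts above 0 were 5 or 6, and Rb1 stayed between 1.49 and 1.79. Peaks at the members' promoters and protein identity were not run. Low counts limit what can be said of E2f2, E2f6 and the FAIRE windows.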
